A study of Homo sapiens with 6 samples.

Results

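Genes that encode the machinery of gene silencing were followed in Raji cells, an established human Burkitt's lymphoma line that arose from germinal centre B cells, with the transcription factor IRF4 raised. The members were chosen by gene symbol, 36 of the 23459 genes in the count table, and all 36 were found there by Entrez identifier. Most were taken from 4 connected systems, those of DNA methylation, histone H3 lysine 9 methylation, Polycomb and histone deacetylation. SMCHD1 and KDM5B were grouped apart, as other silencers. The question put to them was whether silencing genes fall where weakly expressed genes rise.

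These systems keep genes off by marking chromatin. DNA methyltransferases place and copy methyl groups on CpG sites, and TET enzymes oxidise them. The TET genes thus work against methylation, but they are counted among the members. Lysine 9 methyltransferases build heterochromatin that HP1 proteins read, often at repeats and retroviral copies. Polycomb complexes modify histones H3 and H2A over developmental genes, and deacetylases remove the acetyl marks of active genes. In B cells these systems act in germinal centre differentiation and hold plasma cell and non-lymphoid genes in check.

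The IRF4-overexpressing group had 3 libraries of cells given a lentivirus with human IRF4 cDNA, and the control group had 3 libraries of cells given the empty vector. Infection lasted 5 days in both groups, selection in 3 µg/ml puromycin a further 7 days, and RNA came from bulk cells, in which fewer cells of a kind and less RNA per cell cannot be told apart. Nothing in the labels says that replicates were separate infections, so p-values measure library-to-library spread that may be technical. The promoter driving the cDNA is not given in the sources used here.

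Libraries held 27681979 to 46210702 counts. IRF4 was at 120 to 150.0 CPM (counts relative to the TMM-scaled library size) in IRF4-overexpressing libraries and at 1.02 to 1.38 CPM in control libraries. The B cell markers MS4A1, CD79A, CD79B, CD22, PAX5 and EBF1 were all present, at 31.8 to 894 CPM. MS4A1 and CD22 had the smallest p among them, with log2 fold changes of 0.26 and -0.51 (edgeR adjusted p = 0.174 and 0.271). Within the groups the libraries split along 1 axis that held 83.4% of the variance around the group means. IRF4-overexpressing replicate 1 lay on one side with control replicates 2 and 3, and IRF4-overexpressing replicates 2 and 3 lay on the other with control replicate 1. Values without IRF4-overexpressing replicate 1 are given below where they differ most.

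No silencing gene passed the test between the groups. Of the 36 members, 32 were expressed enough to be tested, and 0 were higher and 0 lower by edgeR's quasi-likelihood test with Benjamini-Hochberg adjustment over the 12079 genes tested (adjusted p under 0.05). Over all genes tested, 2.98% were called higher and 0.182% lower. At an unadjusted p under 0.05, 5 members were lower (DNMT3B, TRIM28, HDAC1, SUZ12 and UHRF1), against 8.18% of all genes tested, and 1 was higher (BMI1), against 11.3%. DESeq2 called 1 member lower, DNMT3B, and 0 higher, where it called 1.54% of all genes lower and 4.29% higher, and limma-voom called 0 in either direction.

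The estimates lay mostly a little below 0. The log2 fold change was negative in 27 of the 32 members, against 49.0% of all genes tested, but in 21 when library sizes alone set the scale. The median over the members was -0.16, against 0.01 over all genes tested. Abundance moved with this, since the 15 members with a mean of 100 to 1000 CPM had a median of -0.24, against -0.09 over all 2565 genes of that class. The 15 members of 10 to 100 CPM had a median of -0.13, against -0.01 over all 6010 genes of theirs. Estimates below 0 numbered 13 of 15 in the higher class, against 63.5% of its genes. In the lower class they numbered 12 of 15, against 51.8%. The 95% intervals were not adjusted for the number of genes, and in 28 of the 32 members they lay wholly above a 2-fold fall, as they did in 88.7% of all genes tested. The exceptions were CBX5, TET3, MPHOSPH8 and MORC2.

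**Figure D1:**
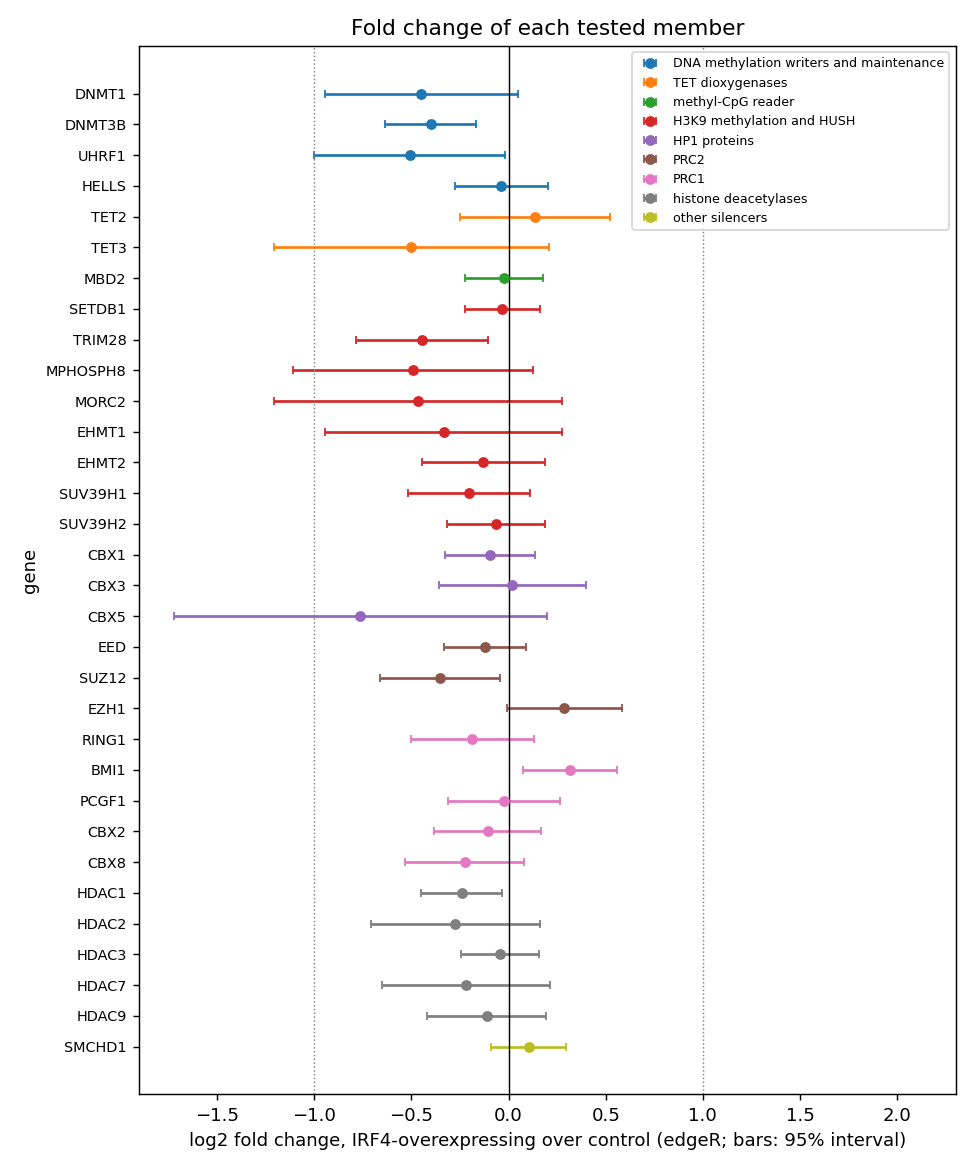
Log2 fold change of each of the 32 tested members (x axis, IRF4-overexpressing over control), listed by system down the page, with dots for edgeR estimates and bars for 95% intervals; dotted lines mark 2-fold changes. The estimates run from -0.76 for CBX5 to 0.32 for BMI1, and 27 lie below 0.

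In the DNA methylation system, the maintenance genes DNMT1 and UHRF1 and the de novo enzyme gene DNMT3B had lower means with IRF4 raised, while HELLS, which encodes a remodeller needed for methylation of repeats, hardly differed. None of them passed the test. Replicates 1, 2 and 3 had 43.5, 36.6 and 38.4 CPM of DNMT3B in the IRF4-overexpressing group, against 49.6, 53.8 and 53.2 CPM in the control group, and levels below follow this replicate order. The groups did not overlap, which was so for 3 of the 32 members in the lower direction and for 11.9% of all genes tested. Its log2 fold change was -0.40 (SE 0.10, 95% interval -0.64 to -0.17, edgeR adjusted p = 0.0952). DNMT3B was called lower by DESeq2 (adjusted p = 0.0241).

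DNMT1, which copies methylation after replication, was at 792, 509.7 and 485 CPM in IRF4-overexpressing libraries, against 689, 869 and 880.2 CPM in control libraries. UHRF1, which brings DNMT1 to newly copied DNA, was at 128, 81.6 and 86.3 CPM in IRF4-overexpressing libraries, against 114, 160 and 146 CPM in control libraries. In both genes IRF4-overexpressing replicate 1 lay among the controls and replicates 2 and 3 lay below all of them. The log2 fold changes were -0.45 for DNMT1 (SE 0.21, 95% interval -0.94 to 0.05, edgeR adjusted p = 0.283) and -0.51 for UHRF1 (SE 0.21, 95% interval -0.998 to -0.016, edgeR adjusted p = 0.242). HELLS had a log2 fold change of -0.04 and an interval of -0.28 to 0.20.

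The third methyltransferase gene, DNMT3A, was barely counted and was not tested. It had 6, 5 and 6 counts in IRF4-overexpressing libraries and 7, 13 and 11 counts in control libraries. Per kilobase of the deposited gene width, DNMT3B was at 7.95 and DNMT3A at 0.0247 CPM per kb in IRF4-overexpressing libraries, and at 10.5 and 0.0545 CPM per kb in control libraries. DNMT3B thus had more counts per kilobase than DNMT3A in both groups. How the reads were counted could not be checked, so the level of DNMT3A is uncertain.

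DNMT1, UHRF1 and HELLS are known to be made mostly in cells that copy their DNA, so the cell cycle genes are given beside them. Of 16 S phase genes, 0 passed by edgeR, 3 had a lower estimate with an unadjusted p under 0.05, and DESeq2 called 1 lower, RRM2. Over all genes tested, edgeR called 2.98% higher and 0.182% lower, with 11.3% and 8.18% at an unadjusted p under 0.05. DESeq2 called 4.29% of all genes higher and 1.54% lower. The S phase levels summed to 6202 ± 269 CPM in IRF4-overexpressing and 6670 ± 85.4 CPM in control libraries (SD, n = 3 each). RRM2, a subunit of ribonucleotide reductase, had a log2 fold change of -0.66 (edgeR adjusted p = 0.133) and the helicase subunit gene MCM4 had -0.33 (edgeR adjusted p = 0.181). Of 10 genes of G2 and mitosis, 0 passed by edgeR or DESeq2, with 1 higher and 1 lower at an unadjusted p under 0.05, and the sums were 2487 ± 107 and 2841 ± 50.2 CPM (IRF4-overexpressing and control, SD, n = 3 each). Of these, CENPE had a log2 fold change of -0.29 and BUB1 of 0.20. Neither sum overlapped between the groups. The S phase sums were 5904 to 6426 CPM in IRF4-overexpressing and 6574 to 6738 CPM in control libraries. Those of G2 and mitosis were 2416 to 2610 and 2791 to 2892 CPM (IRF4-overexpressing and control). The median log2 fold change was -0.07 in each list. Estimates below 0 numbered 15 of the 26 genes, against 49% of all genes tested. Abundant genes weigh most in such sums. MKI67, of G2 and mitosis, was at 522, 148 and 173 CPM in IRF4-overexpressing libraries, against 354, 544 and 652 CPM in control libraries. MCM4 was at 804, 633 and 687 CPM, against 853, 906 and 915 CPM. The sums are thus not a fall shared by all the listed genes. The part of proliferation in the DNMT1 and UHRF1 values was not tested.

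HELLS, SUZ12 and UHRF1 carry the E2F-type motif TTTCCCGC, on either strand, in the 250 bases before an annotated start, and their windows are shown because E2F factors drive genes of DNA replication. They were the 3 carriers among 29 tested members with a promoter in the RefSeq table of GRCh38.p14, against 1.70% of all 27305 genes there. The motif is in capitals. The UHRF1 window is chr19:4909251-4909500, plus strand, with the motif beginning 14 bases before the start and 28 CpG sites. The HELLS window is chr10:94545538-94545787, plus strand, with the motif beginning 8 bases before the start and 18 CpG sites. The SUZ12 window is chr17:31936757-31937006, plus strand, with the motif beginning 189 bases before the start and 34 CpG sites.
UHRF1: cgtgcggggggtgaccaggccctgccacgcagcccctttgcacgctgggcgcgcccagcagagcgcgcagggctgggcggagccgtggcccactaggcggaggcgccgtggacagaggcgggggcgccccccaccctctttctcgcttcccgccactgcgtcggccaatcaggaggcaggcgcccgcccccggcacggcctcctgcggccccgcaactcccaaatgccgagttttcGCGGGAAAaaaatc
HELLS: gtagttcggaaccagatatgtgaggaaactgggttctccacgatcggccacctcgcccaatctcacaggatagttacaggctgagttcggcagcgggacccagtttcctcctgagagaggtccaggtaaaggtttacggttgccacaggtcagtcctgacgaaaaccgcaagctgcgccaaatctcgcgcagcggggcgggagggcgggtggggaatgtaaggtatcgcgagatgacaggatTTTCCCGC
SUZ12: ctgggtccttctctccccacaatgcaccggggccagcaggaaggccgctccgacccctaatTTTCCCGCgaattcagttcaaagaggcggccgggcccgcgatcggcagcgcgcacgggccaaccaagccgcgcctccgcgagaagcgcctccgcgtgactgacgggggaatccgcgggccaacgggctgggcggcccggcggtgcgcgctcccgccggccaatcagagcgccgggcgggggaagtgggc
The carriers had unlike estimates, with log2 fold changes of -0.51 for UHRF1, -0.04 for HELLS and -0.35 for SUZ12. None passed the test, and a match says nothing of whether a factor was bound.

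Among the TET dioxygenases, which oxidise methylcytosine, TET1 had 1 count in 1 IRF4-overexpressing library and 0 in the other 5 libraries, so TET2 and TET3 were the measured members. TET3 was at 68.4, 30.5 and 38.2 CPM in IRF4-overexpressing libraries, against 53.5, 66.2 and 74.3 CPM in control libraries. IRF4-overexpressing replicate 1 lay within the control range and the other two lay below it, and the log2 fold change of -0.50 had an interval of -1.21 to 0.21 (edgeR adjusted p = 0.358). TET2 was highest in IRF4-overexpressing replicate 1, at 17.0 CPM, and otherwise lay between 11.5 and 13.4 CPM in all libraries (log2 fold change 0.14, edgeR adjusted p = 0.61). MBD2, which binds methylated CpG sites and recruits a deacetylase complex, was at 199 ± 12.1 CPM in IRF4-overexpressing and 203 ± 3.89 CPM in control libraries (SD, n = 3 each). Its interval of -0.22 to 0.18 leaves room for a small change only.

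In the lysine 9 system, SETDB1, the methyltransferase that silences retroviral copies, had nearly the same level in every library, while its cofactor TRIM28 had a lower mean with IRF4 raised and did not pass the test. SETDB1 was at 78.5, 78.9 and 74.3 CPM in IRF4-overexpressing libraries, against 78.1, 78.3 and 80.6 CPM in control libraries. Its log2 fold change was -0.03 (SE 0.08, 95% interval -0.22 to 0.16, edgeR adjusted p = 0.815). TRIM28, the scaffold that zinc finger repressors use to reach SETDB1, was at 567, 461 and 409 CPM in IRF4-overexpressing libraries, against 579, 698 and 676 CPM in control libraries. The groups did not overlap, though IRF4-overexpressing replicate 1 lay just under control replicate 1, and the log2 fold change was -0.44 (SE 0.14, 95% interval -0.78 to -0.10, edgeR adjusted p = 0.176).

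MPHOSPH8 and MORC2, a reader and a compactor of the HUSH pathway that silences inserted retroelements, differed most within the IRF4-overexpressing group among the genes of this system, by the ratio of replicate 1 to the mean of the other replicates. MPHOSPH8 was at 54.4, 28.5 and 29.5 CPM in IRF4-overexpressing libraries, against 45.8, 53.4 and 58.7 CPM in control libraries (log2 fold change -0.49, SE 0.26, edgeR adjusted p = 0.321). MORC2 was at 51.7, 25.4 and 22.8 CPM in IRF4-overexpressing libraries, against 39.6, 46.9 and 51.3 CPM in control libraries (log2 fold change -0.47, SE 0.31, edgeR adjusted p = 0.398). In both genes IRF4-overexpressing replicates 2 and 3 lay below every control library and replicate 1 did not. EHMT1, the partner of EHMT2 in dimethylation of lysine 9, followed the same order, with 181, 102 and 99.6 CPM in IRF4-overexpressing libraries and 130.2, 176 and 176 CPM in control libraries (edgeR adjusted p = 0.447). EHMT2, SUV39H1 and SUV39H2, of which the SUV39H enzymes are those of constitutive heterochromatin, had log2 fold changes of -0.13, -0.20 and -0.06, and their groups overlapped.

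The HP1 genes spanned the widest range of estimates of the systems followed, from -0.76 to 0.02. CBX5, for HP1 alpha, was at 773, 265 and 299.6 CPM in IRF4-overexpressing libraries, against 651, 749 and 868 CPM in control libraries. IRF4-overexpressing replicates 2 and 3 lay far below the lowest control library, while replicate 1 lay inside the control range. Its log2 fold change was the largest of the members, -0.76, with the widest interval, -1.72 to 0.20 (SE 0.40, edgeR adjusted p = 0.32). CBX3, for HP1 gamma, ran the other way within groups, at 672, 895 and 892 CPM in IRF4-overexpressing libraries and 952, 735 and 738 CPM in control libraries. CBX1, for HP1 beta, stayed within 94.0 to 111 CPM (IRF4-overexpressing) and 105 to 110.2 CPM (control). CBX3 and CBX1 had log2 fold changes of 0.02 and -0.10. Per kilobase, CBX3 was the most abundant HP1 transcript, at 334 CPM per kb in IRF4-overexpressing and 329 CPM per kb in control libraries. CBX5 was at 37.6 and 63.7 CPM per kb, and CBX1 at 37.6 and 40.2 CPM per kb (IRF4-overexpressing and control).

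CBX5 was the 1 tested member, of 29 with a promoter in the table, that held an IRF-type motif, GAAANNGAAA on either strand, against 3.71% of all genes, and its window is shown because IRF4 belongs to the family that binds such repeats. The composite ETS-IRF motif GGAANNGAAA was found in 0 of the 29, against 2.99% of all genes. The CBX5 window, chr12:54259587-54259836 on the minus strand, lies before a downstream alternative start of the gene and holds 3 CpG sites. The match, in capitals, begins 137 bases before that start.
CBX5: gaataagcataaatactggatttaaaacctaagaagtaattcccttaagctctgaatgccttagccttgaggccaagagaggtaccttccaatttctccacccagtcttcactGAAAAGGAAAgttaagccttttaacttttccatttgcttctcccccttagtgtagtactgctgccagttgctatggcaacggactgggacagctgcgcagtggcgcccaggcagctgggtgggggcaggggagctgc
The counts are per gene and do not tell which start was used.

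**Figure D2:**
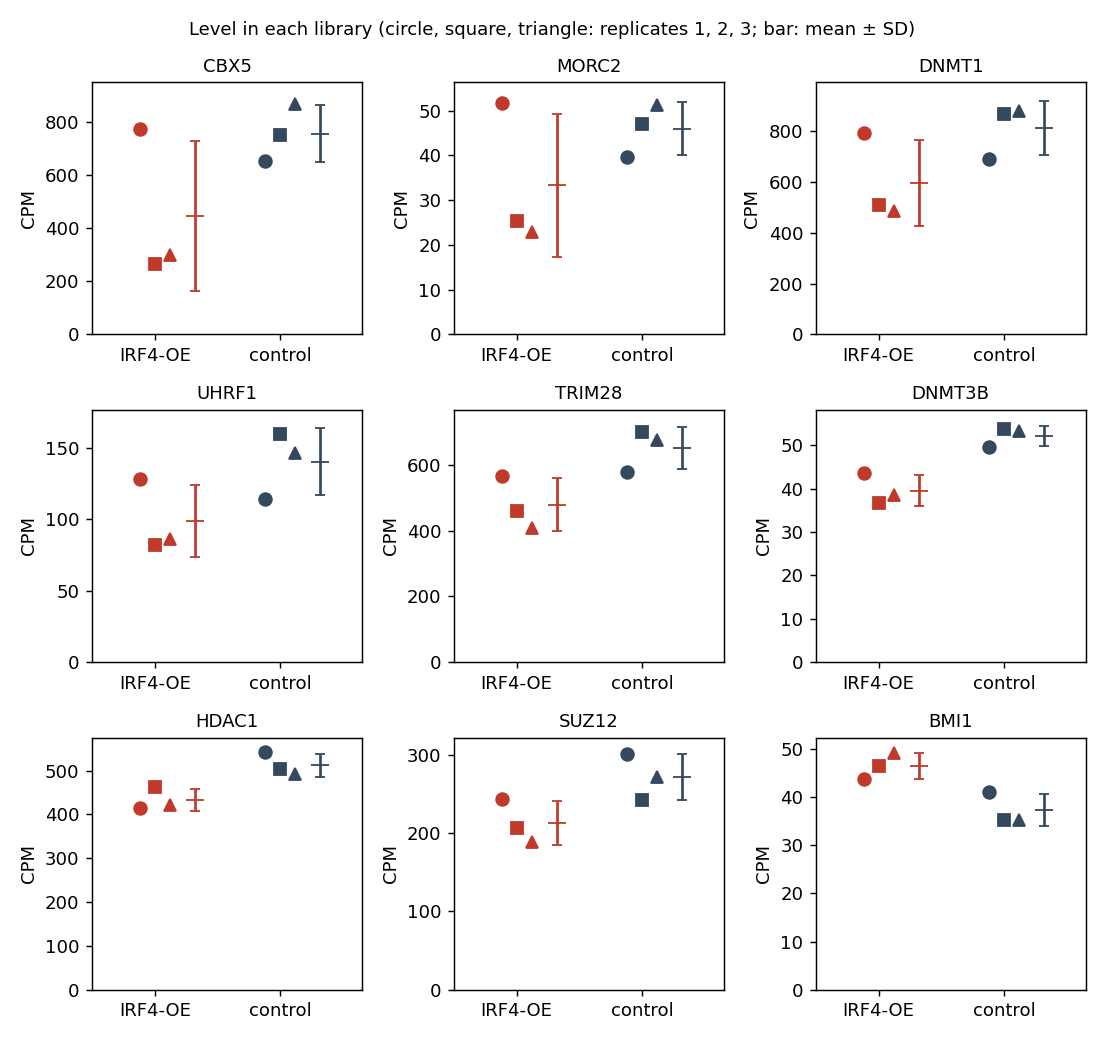
CPM in each library (y axes from 0) for CBX5, MORC2, DNMT1, UHRF1, TRIM28, DNMT3B, HDAC1, SUZ12 and BMI1, with IRF4-overexpressing (IRF4-OE) libraries left and control libraries right; circles, squares and triangles are replicates 1, 2 and 3 and bars are mean ± SD. CBX5 and MORC2 have IRF4-overexpressing replicate 1 near the controls and replicates 2 and 3 far below, whereas in DNMT3B, HDAC1, TRIM28 and BMI1 the groups do not overlap.

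The 3 Polycomb repressive complex 2 genes among the members had estimates on both sides of 0, and none passed the test. They are not the whole complex. SUZ12, a core scaffold of the complex, was at 243, 206 and 188 CPM in IRF4-overexpressing libraries, against 300.4, 242 and 272 CPM in control libraries. IRF4-overexpressing replicate 1 lay level with control replicate 2, and the log2 fold change was -0.35 (SE 0.13, 95% interval -0.66 to -0.05, edgeR adjusted p = 0.212). EED, which reads the mark the complex places, had a log2 fold change of -0.12 (95% interval -0.33 to 0.09). EZH1, a catalytic subunit, was the 1 of the 3 with an estimate above 0. It was at 44.1, 33.4 and 40.6 CPM in IRF4-overexpressing libraries, against 30.5, 34.1 and 32.1 CPM in control libraries (log2 fold change 0.29, SE 0.12, edgeR adjusted p = 0.264).

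In Polycomb repressive complex 1, BMI1 was the member with the highest estimate of all 32. BMI1, a RING finger partner of the ubiquitin ligase, was at 43.7, 46.4 and 49.2 CPM in IRF4-overexpressing libraries, against 41.2, 35.4 and 35.3 CPM in control libraries. The groups did not overlap, as in 13.5% of all genes tested in that direction, and the log2 fold change was 0.32 (SE 0.10, 95% interval 0.07 to 0.56, edgeR adjusted p = 0.176). BMI1 overlaps a read-through gene with its neighbour COMMD3, so its counts are uncertain. EZH1 and BMI1 are singled out here after their values were seen. RING1, PCGF1, CBX2 and CBX8 had log2 fold changes of -0.19, -0.02, -0.11 and -0.23, and their groups overlapped. RNF2, the other ubiquitin ligase subunit, had 1 count in each IRF4-overexpressing library and 0 in each control library, while RING1 was at 24.3 ± 3.84 and 27.7 ± 1.12 CPM (IRF4-overexpressing and control, SD, n = 3 each).

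Of the histone deacetylases, HDAC1, the catalytic core of the NuRD, Sin3 and CoREST complexes, was slightly lower in all IRF4-overexpressing libraries. It was at 415, 462 and 422 CPM there, against 541, 503 and 492 CPM in control libraries, with no overlap. Its log2 fold change was -0.24 (SE 0.09, 95% interval -0.45 to -0.03, edgeR adjusted p = 0.209). Its paralog HDAC2 was at 342, 223 and 217 CPM in IRF4-overexpressing libraries, against 318, 299.9 and 327 CPM in control libraries (log2 fold change -0.27, edgeR adjusted p = 0.397). HDAC3, of the NCoR complexes, and the class II genes HDAC7 and HDAC9 had log2 fold changes of -0.05, -0.22 and -0.11. Per kilobase of the deposited width, HDAC1 was the most abundant, at 122 CPM per kb in IRF4-overexpressing and 144 CPM per kb in control libraries, and HDAC9 the least, at 0.659 and 0.711 CPM per kb (IRF4-overexpressing and control). HDAC2, HDAC3 and HDAC7 lay between, at 37.6, 30.9 and 24.4 CPM per kb in IRF4-overexpressing and 45.4, 31.9 and 28.4 CPM per kb in control libraries. The order of HDAC2 and HDAC3 turned with the length used, since per kilobase of the longest annotated transcript HDAC2 was at 26.4 and HDAC3 at 33.9 CPM per kb in IRF4-overexpressing libraries, and at 31.9 and 35.0 CPM per kb in control libraries.

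The last members were SMCHD1, a silencer of the inactive X chromosome and of gene clusters, and KDM5B, a demethylase of histone H3 lysine 4. SMCHD1 was at 363 ± 15.7 CPM in IRF4-overexpressing and 338 ± 12.9 CPM in control libraries (SD, n = 3 each). Its log2 fold change was 0.10 (edgeR adjusted p = 0.454). KDM5B had 2, 2 and 1 counts in IRF4-overexpressing libraries and 1, 1 and 0 in control libraries. DNMT3A, TET1, RNF2 and KDM5B are therefore the 4 members on which these libraries hold too few counts for a comparison. RNF2 and KDM5B are known to be expressed in many cell types, so counts this low are unusual for them. How the reads were counted, and with which annotation, could not be checked, and these counts are not read as absence of expression.

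**Figure D3:**
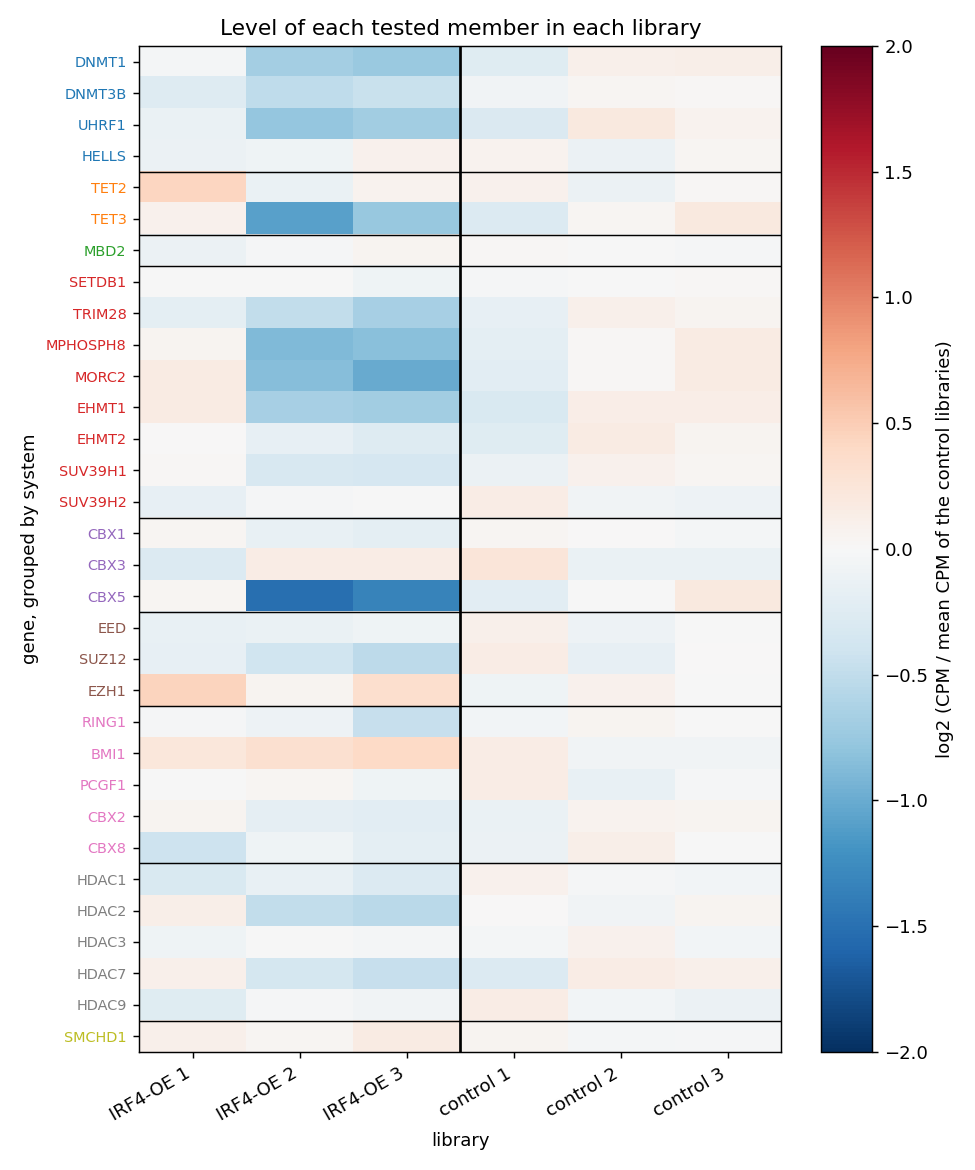
Level of the 32 tested members (rows, by system) in each library (columns, IRF4-overexpressing left of control), as the log2 ratio of CPM to the mean of the control libraries; red is higher and blue lower. The strongest blue cells are those of CBX5 in IRF4-overexpressing replicates 2 and 3, and CBX5 is near the control level in replicate 1.

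The members could be sorted by how they behaved on the library axis. In 8 of the 32, IRF4-overexpressing replicate 1 was over 1.5 times the mean of replicates 2 and 3, against 16.5% of all genes tested, and in 0 was it lower by as much, against 4.89%. These 8 were CBX5 (2.74 times), MORC2 (2.15), TET3 (1.99), MPHOSPH8 (1.87), EHMT1 (1.80), DNMT1 (1.59), HDAC2 (1.55) and UHRF1 (1.52). RPS16, a ribosomal protein gene that marks the axis, was at 626, 27.5 and 39.0 CPM in the same 3 libraries. Without IRF4-overexpressing replicate 1, a fit in which both remaining IRF4-overexpressing libraries share a side with 1 control library, 14 members were lower and 1 was higher (BMI1). In that fit 25.1% of all genes were called lower and 19.9% higher. The log2 fold changes of called members that grew by over 1.5 times there were -1.43 for CBX5, -0.94 for MORC2, -0.92 for TET3, -0.87 for MPHOSPH8, -0.72 for DNMT1, -0.68 for EHMT1, -0.53 for HDAC2, -0.42 for HDAC7 and -0.34 for SUV39H1. Leaving out any other single library gave 0 members in either direction.

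Setting the libraries against each other within a side gave another order. On the side of IRF4-overexpressing replicate 1 and control replicates 2 and 3, the log2 difference was -0.06 for CBX5, 0.07 for MORC2 and -0.04 for both TET3 and MPHOSPH8. On the side of IRF4-overexpressing replicates 2 and 3 and control replicate 1 it was -1.21, -0.71, -0.64 and -0.65. For DNMT3B, TRIM28, UHRF1 and HDAC1 the differences were -0.29, -0.28, -0.26 and -0.26 on the first side and -0.40, -0.42, -0.44 and -0.29 on the other. These 4 members lay below -0.25 on both sides, a limit chosen after the values were seen, against 2.74% of all genes tested. With a term for the side in the model, the same 4 members were called lower and 0 higher, where 3.22% and 5.87% of all genes tested were called. Their edgeR adjusted p values in that fit were 0.0242 for DNMT3B, 0.0334 for TRIM28, 0.0355 for UHRF1 and 0.0402 for HDAC1. The sides were read from the same counts, so these p-values are too small. That fit also rests on the same within-side differences as the limit of -0.25, so naming the same 4 members is no separate support for them.

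**Figure D4:**
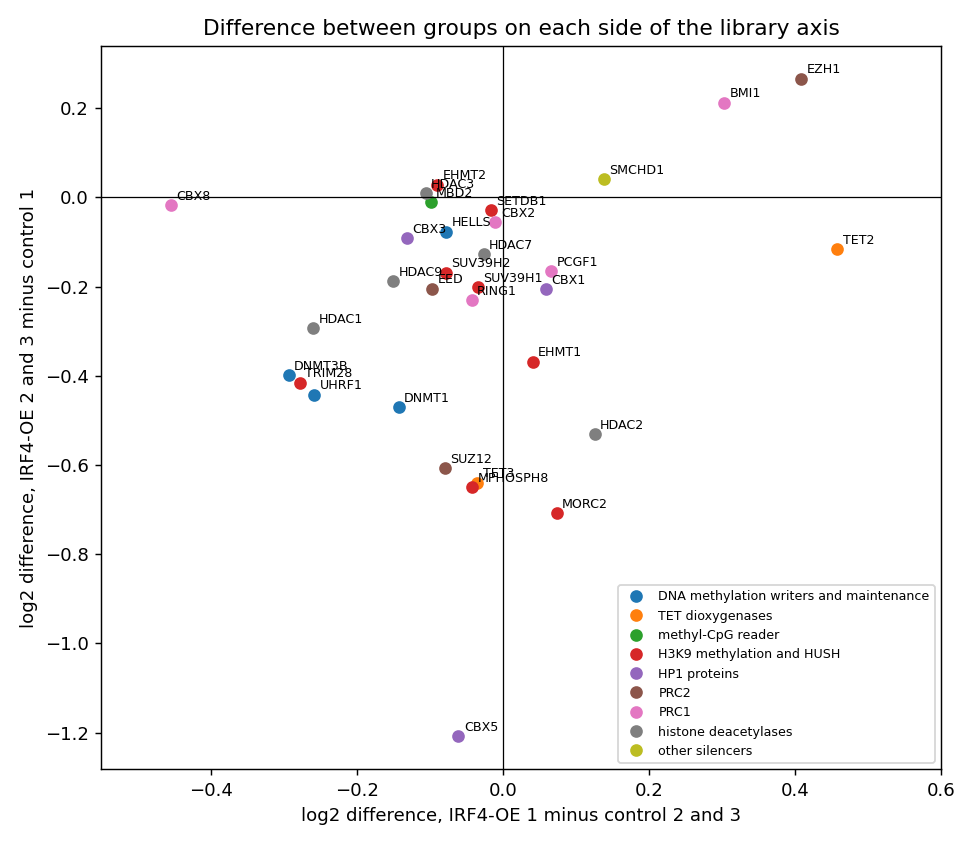
Difference between groups for each tested member on the 2 sides of the library axis, as log2 of CPM plus 0.5: IRF4-overexpressing replicate 1 minus control replicates 2 and 3 (x axis) and IRF4-overexpressing replicates 2 and 3 minus control replicate 1 (y axis), coloured by system. DNMT3B, TRIM28, UHRF1 and HDAC1 lie below -0.25 on both axes, CBX5 lies near 0 on one and at -1.21 on the other, and EZH1, BMI1 and SMCHD1 lie above 0 on both.

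The partner genes of these systems gave the same count. Of 71 partners outside the members, 0 were higher and 0 lower by edgeR, against 2.98% and 0.182% of all genes tested. At an unadjusted p under 0.05, 4 were higher and 9 lower, against 11.3% and 8.18% of all genes tested. By DESeq2 0 were higher and 1 was lower, where it called 4.29% and 1.54% of all genes. The median log2 fold change was -0.18, and 48 of the 71 estimates lay below 0, against 49% of all genes tested. In the DNA methylation list CDCA7, the activator of HELLS, had -0.31 and TDG, a glycosylase that removes oxidised methylcytosine, had -0.22. In the lysine 9 list MORC3 had 0.55 and SETDB2 0.43, both lowest in replicate 1 of their IRF4-overexpressing libraries. In the Polycomb lists PHF19, a recruiter of complex 2, had -0.31 and JARID2 0.32, and YAF2 had 0.27 and PHC3 -0.24. In the deacetylase list RCOR1, the CoREST scaffold, had -0.58 and HDAC6, a cytoplasmic deacetylase, 0.36. The smallest edgeR adjusted p among these was 0.121, for PHF19.

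The summed level of weakly expressed genes did not overlap between the groups. The 5429 genes that averaged 0.3 CPM or less, and had at least 1 count, summed to 382, 362 and 366 CPM in IRF4-overexpressing libraries, against 221, 237 and 235 CPM in control libraries, 1.60 times as much (exact two-sided permutation test over the 6 libraries, p = 0.1, the smallest it can give). Summed per kilobase, the 36 members reached 1301, 1208 and 1182 CPM per kb in IRF4-overexpressing libraries, against 1432, 1411 and 1422 CPM per kb in control libraries. That was 0.865 of the control level, or 0.924 when library sizes alone set the scale. The deposited widths of EHMT2 and RING1 are 8.94 and 8.64 times their longest annotated transcript, and without these genes the ratio was 0.865. They added only 2.37 and 1.61 CPM per kb in IRF4-overexpressing libraries, so leaving them out could hardly move it. The largest parts were those of CBX3, TRIM28, HDAC1 and DNMT1. These were at 334, 162, 122 and 93.8 CPM per kb in IRF4-overexpressing and 329, 220, 144 and 128 CPM per kb in control libraries. The ratio is thus not a level shared by all members.

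**Figure D5:**
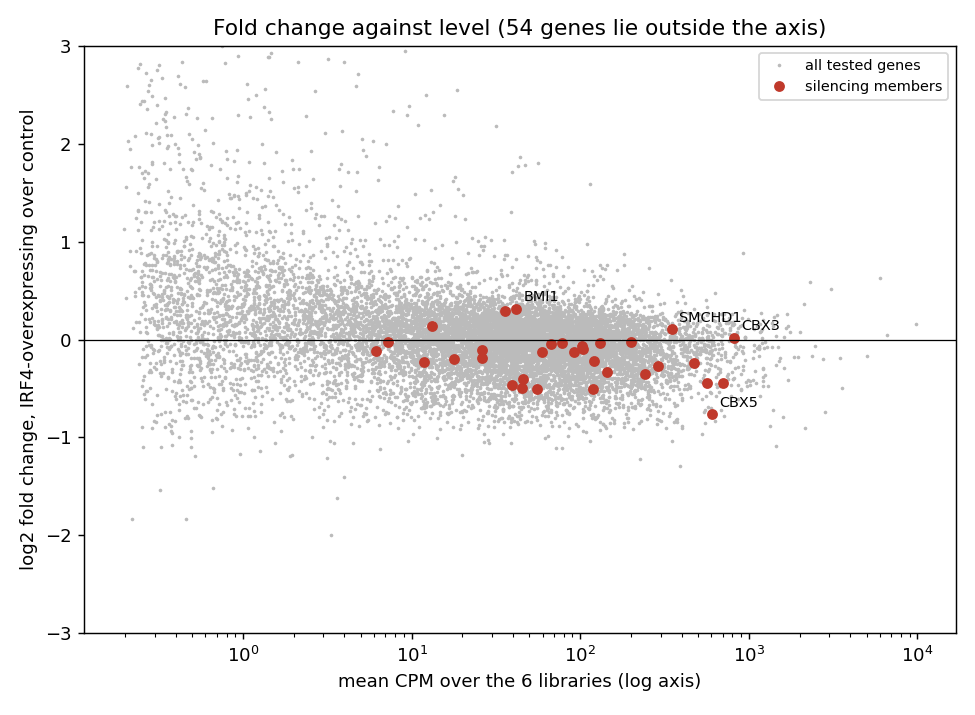
Log2 fold change (y axis, IRF4-overexpressing over control) against mean CPM over the 6 libraries (x axis, log scale) for all 12079 genes tested (grey) and the 32 tested members (red); 54 genes lie outside the y range. Weak genes at the left spread upward, while the members sit at 6.14 CPM and above, between -0.76 and 0.32.

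Lists of genes that silencing systems are known to hold off held 1 gene called higher by edgeR. Of 31 germline genes, 13 had 0 counts in every library and 5 could be tested, of which 1 was higher and 0 lower by both edgeR and DESeq2, with 3 higher and 0 lower at an unadjusted p under 0.05 (PRAME, STAG3 and TEX14). The called gene was PRAME, a cancer-testis antigen gene, with 18, 38 and 37 counts in IRF4-overexpressing libraries and 2, 1 and 1 counts in control libraries (log2 fold change 4.21, SE 0.48, edgeR adjusted p = 0.00621), a size that rests on those few control counts. PRAME passed the expression filter only through the IRF4-overexpressing libraries, so its call is no support for a rise of the listed genes. Of the 65 genes of the germline, developmental and retroviral lists, 11 could be tested. Over all genes tested, 2.98% were called higher by edgeR and 4.29% by DESeq2, and 11.3% were higher at an unadjusted p under 0.05. Estimates of weak genes leaned upward in general. Only 28% of tested genes under 1 CPM, and 35.3% of those at 1 to 10 CPM, lay below 0. STAG3, a meiotic cohesin subunit gene, had a log2 fold change of 0.55 (edgeR adjusted p = 0.179), and TEX14 had 0.71 (edgeR adjusted p = 0.226). The germline list summed to 33.5, 37.2 and 38.9 CPM in IRF4-overexpressing libraries, against 35.5, 35.2 and 36.5 CPM in control libraries, and the groups overlapped. CTCFL alone held 22.7 to 25.3 CPM of these sums in IRF4-overexpressing and 26.3 to 28.2 CPM in control libraries, with a log2 fold change of -0.18. The other 30 germline genes summed to 10.8, 13.0 and 13.7 CPM in IRF4-overexpressing libraries, against 9.21, 6.99 and 9.08 CPM in control libraries, with no overlap, a split made after the values were seen. Of 28 developmental genes that Polycomb is known to hold off, 18 had 0 counts throughout and 0 of 4 tested passed by edgeR, with 1 higher at an unadjusted p under 0.05 and 1 called higher by DESeq2. The list summed to 16.4 to 17.5 CPM in IRF4-overexpressing and 14.2 to 17.0 CPM in control libraries. Of 6 retroviral envelope genes in the table, 0 of 2 tested passed by edgeR, DESeq2 or at an unadjusted p under 0.05, ERVK13-1 with 0.30 and ERV3-1 with 0.08.

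Markers of other cell types were low in all libraries, and their sums did not overlap between the groups. The 37 markers of T and NK, myeloid, epithelial or kidney and mesenchymal cells summed to 12.3 to 17.9 CPM in IRF4-overexpressing and 6.20 to 8.07 CPM in control libraries. Of them 16 had 0 counts in every library, among them CD2, CD8A, MPO, FCGR3A, EPCAM, UMOD, COL1A2 and COL3A1, and of 6 tested, 1 was higher by edgeR and 0 lower. The estimate was above 0 in all 6, and 3 were higher at an unadjusted p under 0.05. Over all genes tested, 2.98% were called higher by edgeR and 11.3% were higher at that unadjusted p. Weak genes leaned upward as a class. Only 28% of tested genes under 1 CPM, and 35.3% of those at 1 to 10 CPM, had an estimate below 0. The called gene, ITGAM, a myeloid integrin gene, had 92, 83 and 122 counts in IRF4-overexpressing libraries, against 29, 17 and 22 counts in control libraries (log2 fold change 1.92, edgeR adjusted p = 0.00256). CSF1R, a myeloid receptor gene, was at 140, 45 and 67 counts in IRF4-overexpressing libraries, against 13, 14 and 16 counts in control libraries (log2 fold change 2.38, edgeR adjusted p = 0.0846). The mesenchymal genes COL1A1 and ACTA2 had log2 fold changes of 1.46 and 0.35 (edgeR adjusted p = 0.192 and 0.331). DESeq2 called 4 markers higher, ITGAM, CSF1R, CDH1 and LUM, and 0 lower. The 6 tested markers averaged over 0.3 CPM in both groups, so they are not in the weak-gene sums at that limit. The part of the other markers in those sums was not tested.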

How the data were processed

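The authors deposited 1 table of raw read counts per Entrez gene, with 1 column per library and a gene width in bases, per the file headers; that the values are counts follows from their being whole numbers with unequal totals. Libraries were stranded and poly(A)-selected, per the labels' protocols. The builds were mm9 and hg19, per the submitters' processing notes, of which hg19 is taken for these human samples; no source used here names an aligner, counter or annotation, or says whether counting used strand. Overlapping and near-identical genes could therefore share reads. Symbols came from a RefSeq table of GRCh38.p14, which matched 23308 of 23459 identifiers. Promoter windows came from RefSeq on that build; 33 of the 36 members had one, and TRIM28, CBX2 and CBX8 did not.

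The main test was edgeR 4.0.16 (R 4.3.3), using TMM factors, filterByExpr and group as the 1 term, with a two-sided quasi-likelihood F-test adjusted over all genes tested; it was run first on simulated counts. SE was the absolute log2 fold change over the square root of F, and intervals used the t distribution. Alternatives were DESeq2 1.42.0, limma-voom 3.58.1, other scalings and filters, a replicate block, a term for the library axis, and leaving out each library. That axis was the first principal component of log2(CPM + 0.5) around group means. Values in every library are given for members past the test (0), the 8 largest log2 fold changes at a mean of at least 1 CPM, and DNMT1, UHRF1, SETDB1, TRIM28, SUZ12 and HDAC1; for other lists, called genes and the 2 smallest p, except that single genes of the developmental list and 1 B cell marker are not reported here. Members and lists were chosen with earlier results of these data known. No library was a copy of another, since the chi-square per gene between replicates ran from 6.73 to 196. Figures were drawn with matplotlib 3.10.9.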

Additional observations from a re-analysis of the deposited data

How the results depend on the processing

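The count of 0 members higher and 0 lower was the same with the other scalings and filters, limma-voom and the replicate block. Members lower numbered 1 with DESeq2, 4 with the axis term and 0 to 14 without single libraries, and members higher 0 to 1 without single libraries; the larger numbers came without IRF4-overexpressing replicate 1, where both libraries left in that group share a side of the axis. Over all 14 alternatives and the main fit, 21 members stayed below 0, 3 above 0 and 8 changed sign. With library sizes alone HELLS, MBD2, SETDB1, SUV39H2, PCGF1 and HDAC3 were at 0.059, 0.073, 0.062, 0.033, 0.074 and 0.050. CBX3 was at -0.00039 with no filter, -0.0025 with DESeq2 and -0.11 with the axis term. Without single libraries CBX3 ran from -0.054 to 0.14, TET2 from -0.043 to 0.27, MBD2 from -0.063 to 0.010, SETDB1 from -0.056 to 0.00041, SUV39H2 from -0.11 to 0.012 and PCGF1 from -0.094 to 0.055. None of these values passed the test. All genes called higher and lower numbered 571 and 205 with DESeq2, 709 and 389 with the axis term, 3 and 0 with the replicate block, 120 to 2436 and 3 to 3071 without single libraries, and 13 lower with library sizes alone. Partners higher and lower numbered 4 and 4 with the axis term, 0 to 4 and 0 to 35 without single libraries, with 1 lower by DESeq2. Targets higher numbered 0 with the stricter filter, which drops PRAME, and with the replicate block, 2 with DESeq2, and 1 to 4 without single libraries, with 0 to 1 lower. Cell cycle genes lower numbered 1 with DESeq2 and with the axis term, and 0 to 7 without single libraries, with 0 to 4 higher. Markers of other cell types higher numbered 0 with the replicate block, 4 with DESeq2, 3 with the axis term and 1 to 3 without single libraries. The ratio of HDAC2 to HDAC3 per kilobase in IRF4-overexpressing libraries was 0.777 with the longest annotated transcripts, against 1.22 with deposited widths, a setting chosen after seeing the data. The weak-gene ratio was 1.77 and 1.40 with limits of 0.1 and 1 CPM, and 1.71 with library sizes alone, which also took the members' summed ratio to 0.924. Same-numbered replicates deviated in opposite directions across genes (correlations -0.74, -0.29 and -0.62), so the replicate block does not stand for a pairing of libraries.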
